A study of Homo sapiens with 4 samples.

Results

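The genes of the respiratory chain were followed in NCI-H1703, a human lung cancer cell line long in culture, using read counts of 112 protein-coding genes. They were taken by symbol from the 48162 genes of the table: the subunits of complexes I to V, 8 complex I assembly factors whose symbols start like those of the subunits, the ATP synthase inhibitor ATP5IF1 and a few related genes. Of the 112 members, 13 are encoded in mitochondrial DNA and 99 in the nucleus. Messenger RNA had been sequenced in 4 libraries, lettered as sets A and B: 2 of cells that carried the pCDNA vector and 2 of cells in which EGFR-AS1, a long noncoding RNA, was overexpressed. Both kinds were cultured in RPMI with 10% fetal serum and kept under 100 µg/ml of hygromycin, at passage 20 to 30 for the vector library of set A and 20 to 31 for the others. Whether replicates were separate cultures or clones is not in the labels, so p-values cover the spread between these libraries and may be technical.

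The respiratory chain passes electrons from NADH (through complex I) and succinate (through complex II) to ubiquinone, then through complex III and cytochrome c to oxygen at complex IV. Complexes I, III and IV pump protons across the inner mitochondrial membrane, and complex V, the ATP synthase, uses the gradient to make ATP. Complexes I, III, IV and V are built from subunits of both genomes, whereas every subunit of complex II is encoded in the nucleus.

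The libraries held 41518275 and 32601449 counted reads (vector A and B) and 32680467 and 33750041 (EGFR-AS1 A and B). EGFR-AS1 had 59 and 37 reads in the vector libraries and 670 and 586 in the overexpression libraries, as labelled. VIM, a mesenchymal intermediate filament gene, stood at 1890 ± 177 CPM (normalized read count scaled to a common library size, corrected for library composition, mean ± SD, n = 2) with the vector and 1920 ± 134 CPM with EGFR-AS1. Of the other mesenchymal markers, CDH2 rose from 0.269 ± 0.113 to 2.17 ± 0.0896 CPM (adjusted p = 8.45e-05, edgeR), and COL1A1 stood at 6.67 ± 2.52 and 10.7 ± 0.337 CPM (adjusted p = 0.0595). The epithelial genes EPCAM, CDH1 and KRT19 stayed at or under 0.212 CPM in every library. The leukocyte, endothelial and muscle markers measured stayed at or under 0.302 CPM, with at most 10 reads. Of the squamous markers, TP63 had 2 to 10 reads, SOX2 rose from 0.0594 ± 0.0506 to 1.87 ± 0.295 CPM (adjusted p = 1.46e-05, edgeR), and KRT5, KRT6A and DSG3 had 19, 13 and 4 reads in the EGFR-AS1 library A and 0 elsewhere. The lung marker NKX2-1 rose from 0.26 ± 0.0989 to 7.13 ± 0.253 CPM and the epithelial keratin KRT18 fell from 75.3 ± 10.3 to 31.0 ± 3.93 CPM (adjusted p of 5.72e-08 and 1.35e-05, edgeR). SFTPC, also a lung marker, had 0 reads in every library. The keratin KRT8 fell from 5.5 ± 0.57 to 2.58 ± 0.582 CPM (adjusted p = 0.00628, edgeR). In such bulk RNA, fewer cells of a kind and less RNA per cell cannot be told apart.

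Sequences that bear on the results are given first. One is the stretch shared by MT-ATP8 and MT-ATP6, neighbouring mitochondrial genes for subunits of the ATP synthase, since it bears on how their reads can be assigned. In the GENCODE 29 transcripts, the last 46 of the 207 bases of MT-ATP8 are also the first 46 of the 681 bases of MT-ATP6, and the capitals mark the start codon of MT-ATP6.
MT-ATP8 and MT-ATP6, shared bases: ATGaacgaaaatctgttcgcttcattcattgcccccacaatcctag

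The others are the RefSeq sequence (GRCh38.p14) of the 250 bases before the start of the 4 members that fell and of COX7C, which rose, to show what their promoters hold (COX7A2 and NDUFA5, which also rose, have several starts). Capitals mark any match on either strand to GCATGCGC (an NRF1 motif), CCGGAAG (an ETS motif of the kind GABP binds), GGGCGG (an SP1 motif) or CCAAT. AAGATGGC (a YY1 motif) was also searched and had no match in these sequences.
COX5B, chr2:97645812-97646061, plus strand: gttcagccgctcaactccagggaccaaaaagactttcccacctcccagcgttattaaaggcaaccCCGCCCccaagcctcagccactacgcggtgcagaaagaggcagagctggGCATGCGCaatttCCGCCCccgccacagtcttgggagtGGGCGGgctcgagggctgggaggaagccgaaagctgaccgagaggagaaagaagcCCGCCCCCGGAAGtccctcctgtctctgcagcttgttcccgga
NDUFB10, chr16:1959288-1959537, plus strand: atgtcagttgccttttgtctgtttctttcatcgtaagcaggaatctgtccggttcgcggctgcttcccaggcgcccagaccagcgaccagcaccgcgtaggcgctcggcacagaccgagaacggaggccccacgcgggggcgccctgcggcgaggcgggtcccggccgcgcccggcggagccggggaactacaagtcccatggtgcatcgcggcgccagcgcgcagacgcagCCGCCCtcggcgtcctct
UQCRC2, chr16:21953111-21953360, plus strand: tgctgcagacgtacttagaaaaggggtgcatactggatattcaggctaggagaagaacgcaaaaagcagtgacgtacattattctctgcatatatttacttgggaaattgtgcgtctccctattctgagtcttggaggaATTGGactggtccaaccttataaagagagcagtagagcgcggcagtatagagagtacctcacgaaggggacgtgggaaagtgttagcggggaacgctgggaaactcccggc
NDUFAB1, chr16:23596317-23596566, minus strand: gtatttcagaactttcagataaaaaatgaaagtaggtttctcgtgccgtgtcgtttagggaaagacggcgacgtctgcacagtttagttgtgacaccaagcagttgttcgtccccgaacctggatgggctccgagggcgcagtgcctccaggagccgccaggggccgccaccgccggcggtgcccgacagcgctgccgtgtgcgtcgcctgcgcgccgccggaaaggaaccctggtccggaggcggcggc
COX7C, chr5:86617691-86617940, plus strand: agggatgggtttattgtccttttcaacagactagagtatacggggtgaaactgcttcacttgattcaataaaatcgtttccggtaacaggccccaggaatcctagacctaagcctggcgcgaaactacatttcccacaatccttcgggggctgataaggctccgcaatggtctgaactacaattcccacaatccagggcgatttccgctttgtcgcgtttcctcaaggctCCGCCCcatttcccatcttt
NRF1 and GABP are known activators of nuclear genes for the respiratory chain. The COX5B promoter held the NRF1 and the ETS motif 1 time each and the SP1 motif 4 times, with the ETS match next to the last SP1 match. The NDUFB10 and COX7C promoters each held 1 SP1 match, that of UQCRC2 held 1 CCAAT box, and that of NDUFAB1 held none of these letters. The 4 promoters of the members that fell thus had no motif of the search in common. RefSeq promoters were found for 78 of the 99 nuclear encoded members, 96 sequences in all with alternative starts. The NRF1 motif was in 14 of the 96 (14.6%), against 2.63% of all 35116 promoters. The ETS motif was in 21 of the 96 (21.9%), against 8.52%. The SP1 motif was in 56.2% and 42.6%, CCAAT in 33.3% and 32%, and the YY1 motif in 2.08% and 1.36%. A match is a match of letters and not a measured binding site.

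Most of the respiratory chain did not pass the test between vector and EGFR-AS1 libraries. Of the 112 members, 102 had enough reads to be tested, and 8 of them (7.84%) differed at an adjusted p under 0.05 in edgeR's quasi-likelihood test, against 14.5% of the 16106 genes tested. Of the members, 4 rose and 4 fell, against 7.80% of all tested genes higher and 6.67% lower. The members that rose were MT-ND6, COX7C, COX7A2 and NDUFA5, and those that fell were COX5B, NDUFB10, NDUFAB1 and UQCRC2. The rises lay between 1.34-fold (COX7A2) and 1.39-fold (MT-ND6 and COX7C), and the falls between 1.39-fold (UQCRC2) and 1.66-fold (COX5B). A p that misses the threshold does not show that a level did not differ. The median log2 fold change was 0.11 over the 13 mitochondrially encoded members, 0.02 over the 89 tested nuclear encoded members and 0.00 over all genes. The groups did not overlap in 49 of the 102 tested members (48%), against 55.5% of all tested genes. Fold changes are EGFR-AS1 over vector throughout.

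**Figure D1:**
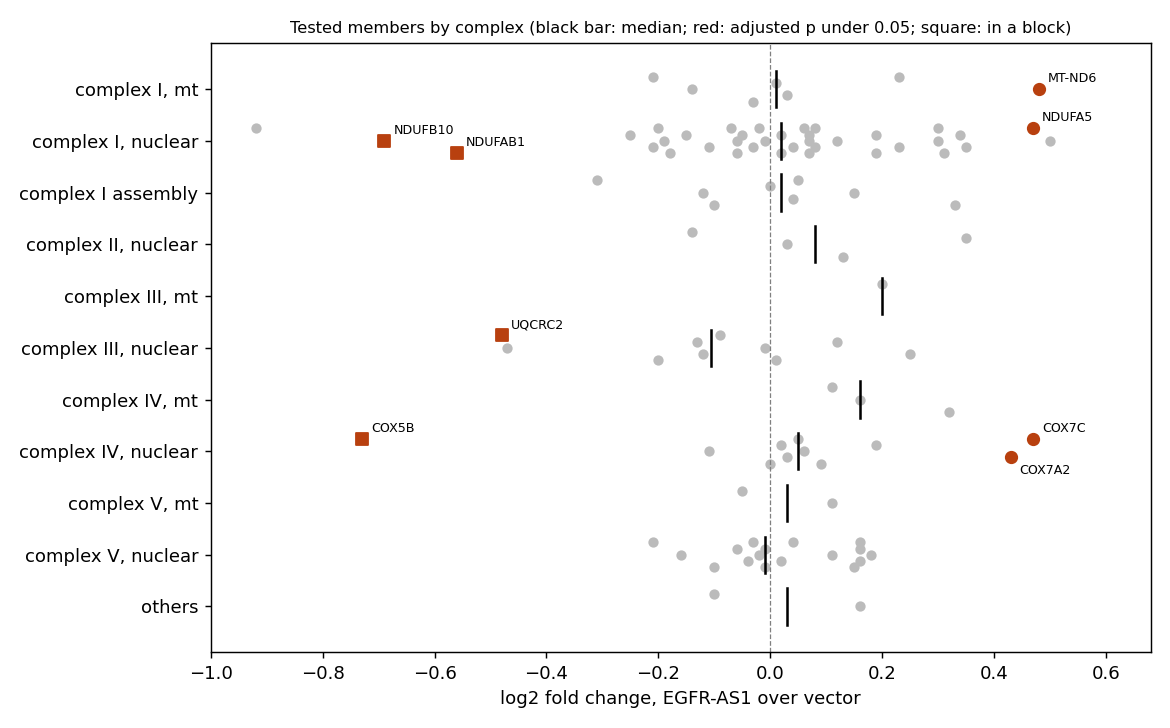
Log2 fold change (EGFR-AS1 over vector, horizontal axis) of each of the 102 tested members, by complex and genome (mt, mitochondrially encoded; others, COX7A2L and ATP5IF1). Red points passed an adjusted p of 0.05, squares lie in chromosomal blocks and black bars are medians; the 4 red squares are the members that fell, all to the left of 0.

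Of the mitochondrially encoded members, MT-ND6 alone passed the test between the groups in edgeR. They took 2.54% and 2.21% of the reads of the vector libraries and 2.83% and 2.35% with EGFR-AS1, A before B. The set A library was the higher in both groups, and the ranges of the groups overlapped. The 99 nuclear encoded members together took 0.819% and 0.847% with the vector and 0.831% and 0.827% with EGFR-AS1. The ratio of mitochondrially to nuclear encoded reads was therefore 3.11 and 2.61 with the vector and 3.40 and 2.84 with EGFR-AS1, again overlapping. With 2 libraries against 2, no exact two-sided test of such a sum can give a p below 0.333, and none was made. Within set A the ratio was 1.10-fold higher with EGFR-AS1 and within set B 1.09-fold, less than the difference between the letters inside either group. Of the 13 genes, 10 were higher in A than in B with the vector and 10 with EGFR-AS1, of which 7 were in both. The tested nuclear members went mostly the other way with the vector: 17 of 89 were higher in A than in B, and 9 in both groups. The same count over all tested genes was not made, so whether this was particular to the nuclear members was not tested. The letters are not explained in the labels, and their part in the mitochondrial and nuclear levels was not tested.

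**Figure D2:**
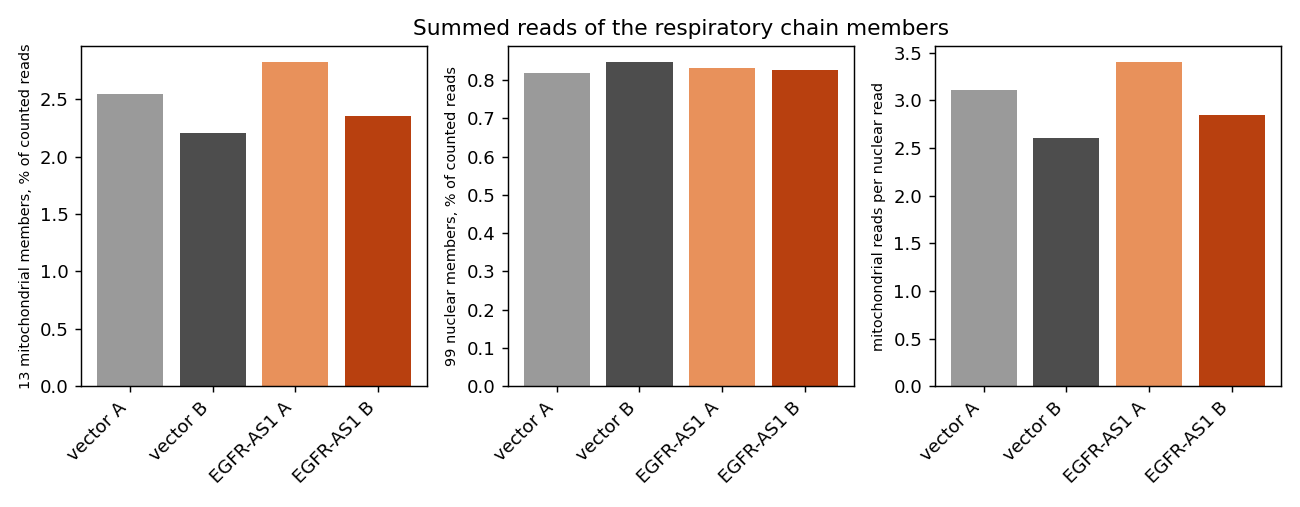
Share of counted reads on the 13 mitochondrially encoded members (left, percent), on the 99 nuclear encoded members (middle, percent) and the ratio of the 2 sums (right), 1 bar per library. Set A stands above set B in the left and right panels in both groups, while the middle bars lie between 0.819% and 0.847%.

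MT-ND6, a membrane subunit of complex I, is the only protein gene read from the light strand of mitochondrial DNA. It stood at 105 and 91.1 CPM with the vector and 132 and 141 CPM with EGFR-AS1. Both overexpression libraries lay above both vector libraries. It rose by a log2 fold change of 0.48 (SE 0.12, 1.39-fold, adjusted p = 0.0141 by edgeR). The strand setting of the counting is not given in the sources used here. Whether reads from the opposite strand entered the MT-ND6 count was not tested. Out of 100 mitochondrially encoded reads, MT-ND6 took 0.422 and 0.399 with the vector and 0.473 and 0.599 with EGFR-AS1, so the groups also stood apart within the mitochondrial reads. By this share they also stood apart in MT-ND5 and MT-CO3, as higher, and in MT-ND1, MT-ND2, MT-ND3 and MT-ND4, as lower. Standing apart was thus not particular to MT-ND6. The shares of the 13 genes add to 100, so a higher share of some lowers that of others. In CPM the groups stood apart in 3 of the 13 genes (23.1%), against 55.5% of all tested genes. The call was lost without the EGFR-AS1 library A (adjusted p = 0.0801) and without the EGFR-AS1 library B (0.188).

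The other 6 complex I genes of mitochondrial DNA did not pass, with log2 fold changes from -0.21 to 0.23. MT-ND5 stood at 1189 and 1011 CPM with the vector and 1370 and 1219 CPM with EGFR-AS1, without overlap (log2 fold change 0.23, adjusted p = 0.25, edgeR). MT-ND1, at the other end, stood at 1243 and 1101 CPM with the vector and 1191 and 842 CPM with EGFR-AS1 (-0.21, adjusted p = 0.413). Its EGFR-AS1 library B was the lowest of the 4. MT-ND2 held 1602, 1796, 1720 and 1358 CPM, MT-ND3 1005, 1063, 1106 and 913 CPM, and MT-ND4 3745, 3440, 4061 and 3282 CPM, in the order vector A, vector B, EGFR-AS1 A and EGFR-AS1 B. MT-ND4L held 361, 377, 389 and 356 CPM in that order. In each of these 4 genes the groups overlapped. MT-ND4L shares its last 7 bases with MT-ND4.

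MT-CYB, the cytochrome b of complex III, stood at 1897 and 1518 CPM with the vector and 2185 and 1726 CPM with EGFR-AS1, with overlap. The 3 genes of the catalytic core of complex IV were the most abundant per length. MT-CO1 held 6906 and 5940 CPM with the vector and 7466 and 6432 CPM with EGFR-AS1. MT-CO2 held 2596 and 2287 CPM against 3050 and 2406 CPM. In both the letters differed more than the groups. MT-CO3 was the exception in that the letters hardly differed: 2847 and 2801 CPM with the vector and 3514 and 3541 CPM with EGFR-AS1. Its log2 fold change of 0.32 (SE 0.11) lay just outside the threshold (adjusted p = 0.074, edgeR), and inside it with DESeq2 (0.044) and limma-voom (0.0457). Without the vector library A, MT-CO1, MT-CYB, MT-ND5 and MT-CO3 passed, as MT-ND6 did, as higher (adjusted p of 0.0478, 0.00429, 0.00909 and 0.00493). Without the vector library B, MT-CO3 passed (0.0119) and MT-ND1 passed as lower (0.0424).

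MT-ATP6 held 1426 and 1400 CPM with the vector and 1702 and 1351 CPM with EGFR-AS1. MT-ATP8, beside it on the same transcript, was counted at 58, 41, 35 and 51 reads, against 60447, 44131, 56361 and 45512 reads for MT-ATP6. Per length this is 6.33 CPM per kb for MT-ATP8 and 2159 CPM per kb for MT-ATP6. The gene's 207 bases are shorter than the library inserts of 250 to 300 bp, and 22.2% of them are the shared bases printed above. A read that touches both genes can be left uncounted, so the count of MT-ATP8 is uncertain as a level. The setting used in counting is not given in the sources used here.

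**Figure D3:**
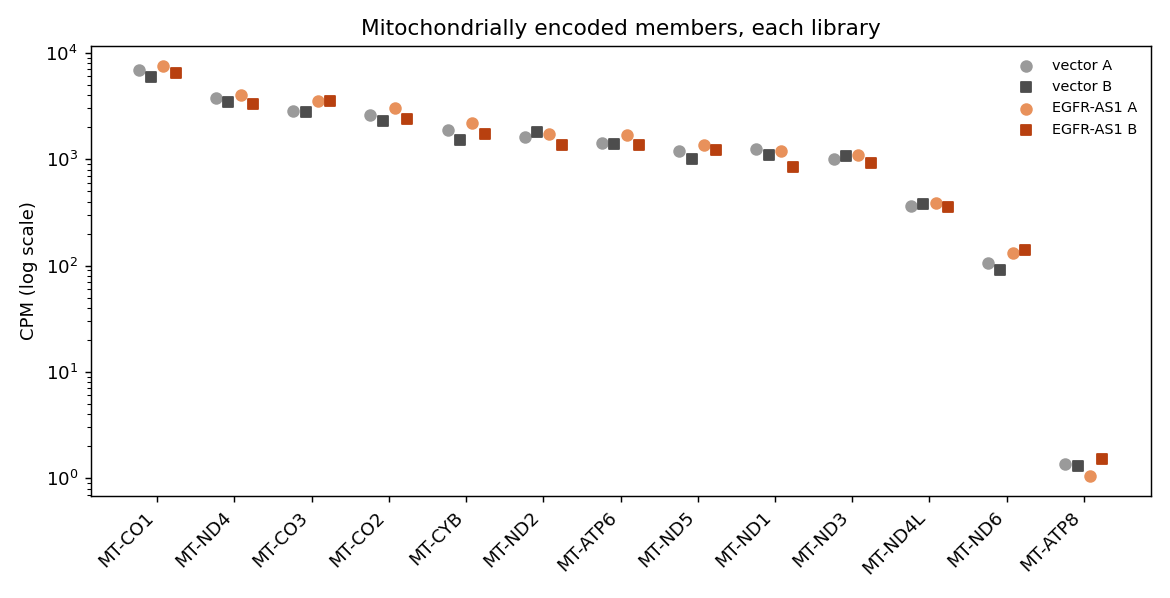
Level of the 13 mitochondrially encoded members in CPM (vertical axis, log scale), 1 point per library, ordered by mean. MT-CO1 is highest at 5940 to 7466 CPM and MT-ATP8 lowest at 1.06 to 1.51 CPM; the EGFR-AS1 points lie above both vector points in MT-CO3, MT-ND5 and MT-ND6.

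The nuclear encoded subunits were lower per length by more than a factor of 10 at the median of each complex. In CPM per kb of the longest annotated transcript, the median over the tested subunits was 34.5 for the 37 nuclear subunits of complex I against 1248 for the 7 mitochondrial ones. For complex III it was 64.5 (10 genes) against 1605 for MT-CYB, for complex IV 95.4 (11) against 4050 (3), and for complex V 55.9 (17) against 1083 (2, MT-ATP8 included). The 4 subunits of complex II had a median of 54.9. These levels are of polyadenylated messenger RNA libraries and carry no measure of protein.

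Complex I nuclear subunits moved in both directions: of 37, 1 rose, 2 fell and 34 did not pass the test (8.11% called, against 14.5% of all tested genes). NDUFA5, a subunit of the matrix arm, held 24.2 and 26.4 CPM with the vector and 33.3 and 36.6 CPM with EGFR-AS1, without overlap. It rose 1.38-fold (log2 fold change 0.47, SE 0.14, adjusted p = 0.0328, edgeR). NDUFB10, a subunit of the membrane arm, held 99.6 and 92.1 CPM with the vector and 58.3 and 60.4 CPM with EGFR-AS1. It fell by 0.69 on the log2 scale (SE 0.12, 1.62-fold lower, adjusted p = 0.000745). NDUFAB1, the mitochondrial acyl carrier protein, which sits in complex I and also serves fatty acid and iron-sulphur cluster synthesis, held 95.2 and 112 CPM with the vector. With EGFR-AS1 it held 69.3 and 70.8 CPM, a fall of 0.56 on the log2 scale (SE 0.12, 1.48-fold lower, adjusted p = 0.00491). For both genes that fell, each EGFR-AS1 library lay under each vector library. NDUFA5 lost its call without the vector library A (adjusted p = 0.058) or either EGFR-AS1 library (0.112 without A, 0.356 without B). NDUFAB1 lost it without the EGFR-AS1 library A (0.0619).

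Among the 8 complex I assembly factors, 0 passed in edgeR, DESeq2 or limma-voom, and 2 had an unadjusted p under 0.05 in each of them. NDUFAF3 is the nearest to the threshold, at 49.2 and 53.5 CPM with the vector and 68.5 and 60.4 CPM with EGFR-AS1 (adjusted p = 0.0972). Per length, NDUFS6, an accessory subunit of the matrix arm, stood highest among the nuclear subunits of complex I at 173 CPM per kb, and NDUFC2 lowest at 0.574. Over the union of exons in place of the longest transcript, NDUFA1 (131) passed NDUFS6 (129), and NDUFA7 (0.310) stood under NDUFC2 (0.545).

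All 4 subunits of complex II, the succinate dehydrogenase, were tested, and 0 passed in edgeR, DESeq2 or limma-voom. SDHA, the flavoprotein that oxidizes succinate, held 414 and 481 CPM with the vector and 422 and 391 CPM with EGFR-AS1. SDHB, the iron-sulphur subunit, held 87.3 and 98.8 CPM against 93.2 and 96.6 CPM. The groups overlapped in both. Of the membrane anchors, SDHC held 105 and 109 CPM against 115 and 119 CPM, and SDHD 34.8 and 36.7 CPM against 41.6 and 49.6 CPM. SDHD was the only 1 of the 4 with an unadjusted p under 0.05 (log2 fold change 0.35, SE 0.14, adjusted p = 0.101, edgeR). Per length SDHA stood highest at 142 CPM per kb and SDHC lowest at 8.25, over a longest transcript of 13566 bases. In CPM, SDHD was the lowest of the 4.

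In complex III, 1 of 10 nuclear subunits fell and none rose by edgeR (10% called, against 14.5% of all tested genes). UQCRC2, a core protein of the matrix side, held 232 and 247 CPM with the vector and 169 and 175 CPM with EGFR-AS1, without overlap. It fell by 0.48 on the log2 scale (SE 0.12, 1.39-fold lower, adjusted p = 0.0103). The call was lost without either EGFR-AS1 library (0.185 without A, 0.125 without B). UQCRC1, its partner core protein, did not pass (adjusted p = 0.191), with 168 and 182 CPM against 208 and 207 CPM. UQCRH, the hinge protein that pairs with cytochrome c1, stood highest per length among the nuclear subunits at 234 CPM per kb, and its intronless copy UQCRHL at 0.918. Since the 2 are near-identical, the count of UQCRHL (96, 75, 64 and 48 reads) is uncertain. UQCR11 stood lowest at 0.463.

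Complex IV held 3 of the 8 calls, 2 higher and 1 lower among 11 tested nuclear subunits (27.3%, against 14.5% of all tested genes). That share rests on few genes. The lower 1, COX5B, lies in the chromosome 2 block described below, where 59.6% of the tested genes passed. COX5B, a matrix-side subunit that binds zinc and had the highest level per length among the nuclear subunits of its complex (186 CPM per kb), held 162 and 180 CPM with the vector. With EGFR-AS1 it held 107 and 98.8 CPM, a fall of 0.73 on the log2 scale (SE 0.12, 1.66-fold lower, adjusted p = 0.000575, edgeR). This was the smallest adjusted p of the members, and it stayed past the threshold in all 12 alternatives. COX7C, a small membrane subunit, held 118 and 144 CPM with the vector and 172 and 191 CPM with EGFR-AS1. It rose 1.39-fold (log2 fold change 0.47, SE 0.13, adjusted p = 0.0204). COX7A2, the isoform of subunit VIIa found in most tissues, held 70.5 and 78.6 CPM against 99.3 and 101 CPM. It rose 1.34-fold (log2 fold change 0.43, SE 0.12, adjusted p = 0.0223). The groups did not overlap in any of the 3 genes. COX7C lost its call without the vector library A (adjusted p = 0.0609) or an EGFR-AS1 library (0.071 without A, 0.261 without B). COX7A2 lost its call in the same 3 cases (0.0588, 0.169 and 0.205).

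**Figure D4:**
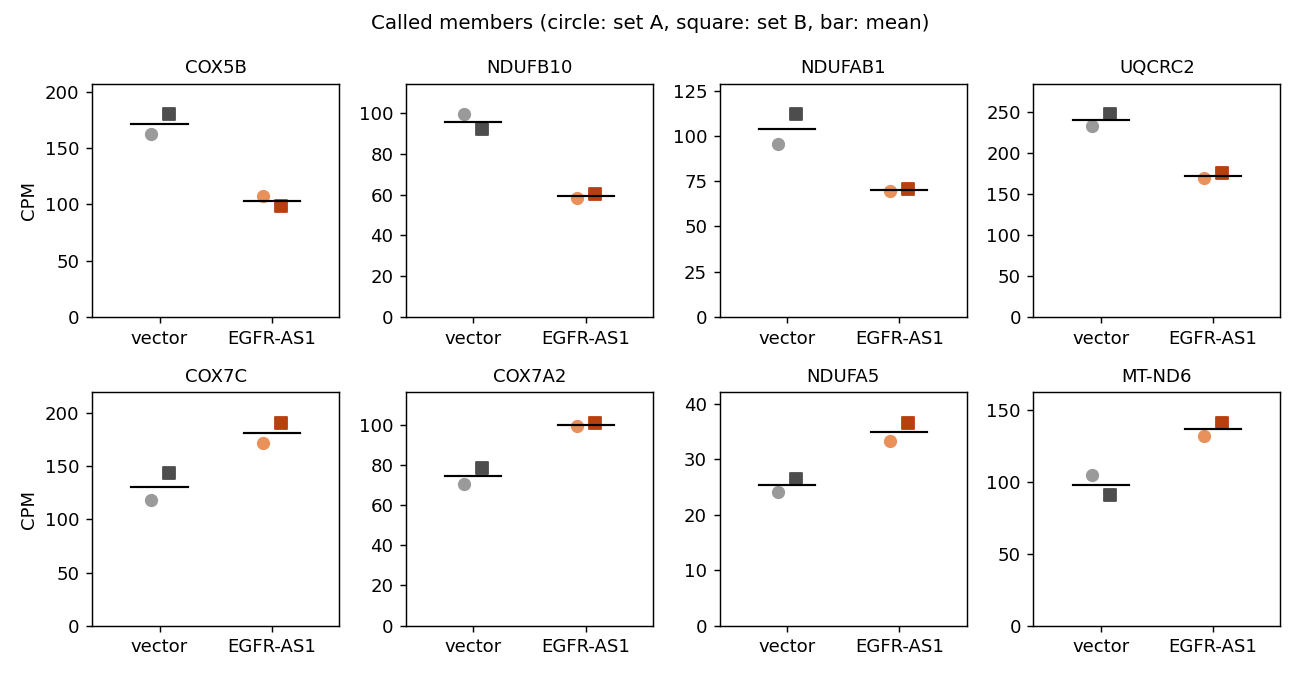
Level in CPM (vertical axis, from 0) of the 8 members that passed the test, in 2 vector and 2 EGFR-AS1 libraries (circle, set A; square, set B; bar, mean). The groups are apart in every panel, with COX5B at 162 to 180 against 98.8 to 107 CPM and COX7A2 at 70.5 to 78.6 against 99.3 to 101 CPM.

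The tissue-specific isoforms of complex IV were at or near 0 reads, and their widely expressed partners carried the reads. COX4I2 (lung), COX6A2 (heart and muscle) and COX7B2 (testis) had 0 reads in every library. COX8C (testis) had 1 read, COX6B2 (testis) 3 reads, both in the vector library A, and COX7A1 (heart and muscle) 2, 2, 2 and 0 reads. The partners COX4I1, COX6B1 and COX7A2L, the last a supercomplex factor related to subunit VIIa, did not pass the test. COX4I1 held 230 and 241 CPM with the vector and 224 and 213 CPM with EGFR-AS1, and COX6B1 81.9 and 85.7 CPM against 88.1 and 81.9 CPM. COX7A2L held 140 and 132 CPM against 125 and 129 CPM. NDUFA4, first assigned to complex I and now to complex IV, held 101 and 118 CPM against 103 and 115 CPM. Its hypoxia-induced relative NDUFA4L2 had 21, 9, 7 and 10 reads and was not tested. COX6A1 stood lowest per length of the tested nuclear subunits of complex IV (7.32 CPM per kb), with 4.86 and 6.28 CPM against 5.80 and 5.52 CPM, and COX8A held 13.8 and 21.8 CPM against 20.0 and 17.7 CPM.

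In complex V, 0 of 19 tested subunits passed in edgeR, DESeq2 or limma-voom, and 0 had an unadjusted p under 0.05 in any of these. The log2 fold changes of the 17 tested nuclear subunits lay between -0.21 and 0.18. ATP5F1B, the catalytic beta subunit, stood highest per length among the nuclear subunits at 447 CPM per kb, with 784 and 891 CPM with the vector and 794 and 817 CPM with EGFR-AS1. ATP5PO, a stalk subunit, stood lowest of them at 2.15 CPM per kb. The genes ATP5MC1, ATP5MC2 and ATP5MC3 encode the same mature c-ring protein. ATP5MC3 was the most abundant in CPM of the genes (213, 248, 223 and 237 CPM), followed by ATP5MC2 (129, 124, 140 and 142 CPM) and ATP5MC1 (96.0, 112, 104 and 103 CPM). Their order per length depends on the length used. It was ATP5MC2 (67.7), ATP5MC1 (46.9) and ATP5MC3 (42.0 CPM per kb) over the longest transcript, and ATP5MC1 (39.7), ATP5MC3 (34.0) and ATP5MC2 (33.5) over the union of exons. The inhibitor ATP5IF1, which blocks ATP hydrolysis by the enzyme, held 42.2 and 41.2 CPM against 47.7 and 45.4 CPM (adjusted p = 0.461, edgeR). Besides the isoforms above, ATP5MGL and the readthrough genes ATP5MF-PTCD1 and NDUFC2-KCTD14 were not tested, with at most 3 reads in a library.

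The 4 members that fell all lay in stretches of chromosomes where most genes were lower with EGFR-AS1. NDUFB10, UQCRC2 and NDUFAB1 lie on chromosome 16 between METRN and LCMT1, and COX5B on chromosome 2 between ZNF514 and ORC4. These limits had been drawn from these same libraries, so the counts in them are a description. In the chromosome 16 block 155 of 291 tested genes passed as lower and 3 as higher. In the chromosome 2 block 115 of 198 passed as lower and 3 as higher. Over the 20 nearest protein-coding genes of at least 5 CPM, 10 on each side, the median log2 fold change was -0.67 around COX5B, -0.64 around NDUFB10, -0.52 around UQCRC2 and -0.47 around NDUFAB1. The genes' own values were -0.73, -0.69, -0.48 and -0.56. Around the nuclear members that rose the same medians were 0.09 (COX7C), 0.08 (COX7A2) and 0.00 (NDUFA5). Of the 20 neighbours, 5 passed as higher and 1 as lower around COX7A2, 2 and 2 around COX7C, and 1 and 1 around NDUFA5. Outside these blocks and those of chromosomes 8 and 14, 3 of 85 tested nuclear members rose by edgeR (3.53%), and 4 in each of DESeq2 and limma-voom. Of these 85, 0 fell in any of the 3 tools, with 2 lower at an unadjusted p under 0.05 in edgeR and 1 in each of the others. Over all tested genes, blocks included, edgeR called 7.80% higher and 6.67% lower. What sets the level of the blocks was not tested.

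**Figure D5:**
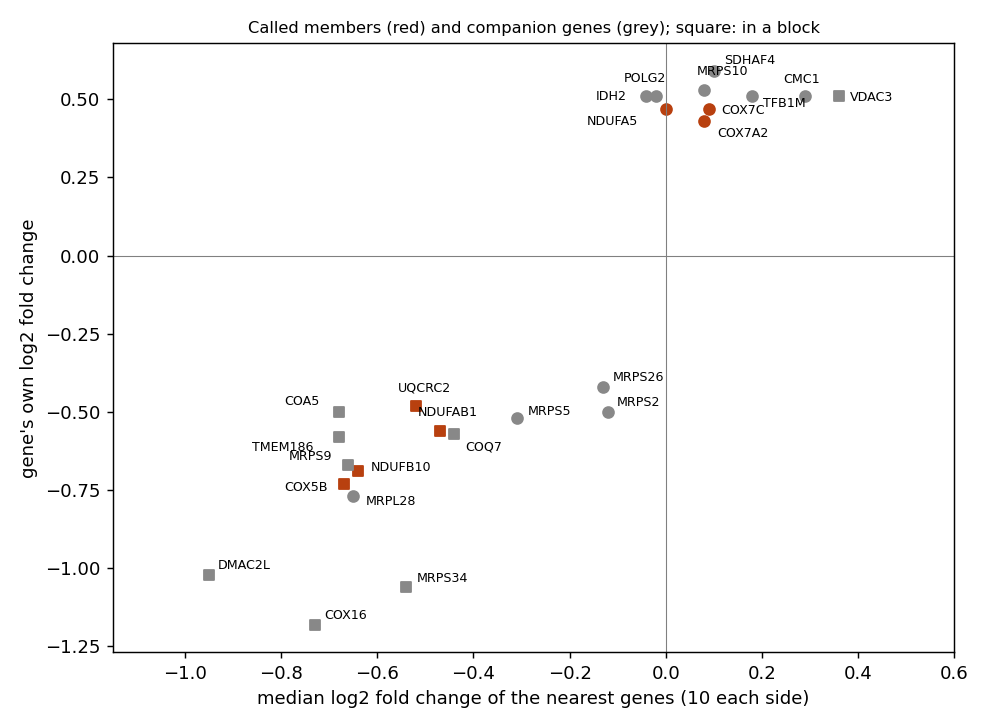
Each nuclear member (red) and companion gene (grey) that passed the test is placed by its own log2 fold change (vertical axis). The horizontal axis is the median log2 fold change of its nearest genes, up to 10 on each side. These are protein-coding genes for the members and genes of any type for the companion genes. Squares lie in the blocks; COX5B, NDUFB10, NDUFAB1 and UQCRC2 sit with neighbour medians of -0.67 to -0.47, and the red circles with 0.00 to 0.09.

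Low counts of some subunits went with gene models that overlap. In 19 tested members, exons of another gene on the same strand covered 5% or more of the exonic sequence. Of these, 12 stood under 25 CPM, with a median of 6.11 CPM over the 19. Of the 83 with less overlap 4 stood under 25 CPM, and their median was 96.6 CPM. Examples are NDUFB8 (28, 21, 26 and 37 reads, 33.8% overlapped), NDUFA7 (20, 13, 16 and 13 reads, 32.3%) and NDUFV2 (37, 43, 23 and 16 reads, 28.4%). In these 3 the overlap is with genes that had 0 reads in all 4 libraries. For UQCR11, the overlapping gene had 3, 7, 7 and 7 reads beside 26, 22, 20 and 18. The levels of these members, and with them the lowest levels per length given above for NDUFC2, UQCR11, COX6A1 and ATP5PO, are therefore uncertain. The log2 fold change of NDUFV2 (-0.92, SE 0.41, adjusted p = 0.158, edgeR) and that of NDUFB8 (0.50, SE 0.39, adjusted p = 0.446) were the extremes among the members, both from fewer than 50 reads a library.

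Genes that build, express and feed the chain were followed in 10 companion lists, in which 225 genes were tested. Of these, 7 rose and 11 fell (18, or 8%), against 14.5% of all genes. Of the 11 that fell, 7 lay in the chromosomal blocks. Among 20 complex I assembly genes, which include the 8 factors above, TMEM186 fell (log2 fold change -0.58) and none rose (5% called). The median was 0.01. Among 36 assembly genes of the other complexes 5 passed (13.9%), near the 14.5% of all tested genes. Of these, SDHAF4 (0.59) and CMC1 (0.51) rose and COX16 (-1.18), DMAC2L (-1.02) and COA5 (-0.50) fell. TMEM186, COX16, DMAC2L and COA5 lie in the blocks. SDHAF4 helps SDHA join complex II, CMC1 and COX16 serve the assembly of complex IV, and DMAC2L is a factor tied to complex V. SDHAF4 stood at 8.56 ± 0.533 CPM with the vector and 12.9 ± 0.734 CPM with EGFR-AS1 (adjusted p = 0.0323, edgeR).

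Of 19 genes for the upkeep and transcription of mitochondrial DNA, 2 rose and none fell in edgeR, DESeq2 or limma-voom. By edgeR this is 10.5% called, against 14.5% of all tested genes called and 7.80% called higher. TFB1M, a methyltransferase of the small mitochondrial ribosomal RNA, rose from 14.2 ± 0.275 to 20.3 ± 1.05 CPM (log2 fold change 0.51, adjusted p = 0.0347). POLG2, the accessory subunit of the mitochondrial DNA polymerase, rose from 21.4 ± 0.956 to 30.5 ± 0.621 CPM (0.51, adjusted p = 0.0221). Of 20 genes for the processing and stability of mitochondrial RNA, 0 passed in any of the 3 tools, with 1 (edgeR, DESeq2) or 2 (limma-voom) at an unadjusted p under 0.05. Of 9 tested transcription factors and coactivators of respiratory genes, 0 passed in edgeR and DESeq2 and 1 as lower in limma-voom, with 1 at an unadjusted p under 0.05 in each.

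The mitochondrial ribosome, which translates the 13 mitochondrially encoded proteins, had 74 tested members, of which 1 rose and 6 fell (9.46% in all, against 14.5% of all tested genes). The median log2 fold change was -0.06 against 0.00 over all genes, and 47 of 74 were below 0, against 7956 of 16106. MRPS34 held 112 ± 11.3 CPM with the vector and 53.4 ± 0.755 CPM with EGFR-AS1 (-1.06, adjusted p = 2.06e-05, edgeR). MRPL28 fell from 122 ± 3.71 to 71.4 ± 0.2 CPM (-0.77, adjusted p = 0.000262), and MRPS9 from 47.1 ± 4.18 to 29.7 ± 1.57 CPM (-0.67, adjusted p = 0.00285). MRPS34 lies in the chromosome 16 block and MRPS9 in that of chromosome 2. MRPL28 is on chromosome 16 outside the block's limits, and all 18 of its neighbours measured were below 0, at a median of -0.65. Neighbours of companion genes were taken from genes of any type, not from protein-coding genes alone. MRPS5 (-0.52), MRPS2 (-0.50) and MRPS26 (-0.42) also fell, with neighbour medians of -0.31, -0.12 and -0.13. MRPS10 rose from 88.6 ± 7.4 to 128 ± 8.31 CPM (0.53, adjusted p = 0.00685).

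Few genes of the pathways that supply the chain passed the test, which does not show that the others did not differ. In the tricarboxylic acid cycle 1 of 18 genes passed (5.56%, against 14.5% of all tested genes), and 4 had an unadjusted p under 0.05 in edgeR. The gene that passed was IDH2, the NADP-dependent mitochondrial isocitrate dehydrogenase. IDH2 rose from 30.4 ± 3.4 to 43.4 ± 4.1 CPM (log2 fold change 0.51, adjusted p = 0.0211, edgeR). Of 11 genes of ubiquinone synthesis 1 passed (9.09%). COQ7 fell (-0.57, adjusted p = 0.0118, edgeR), and it lies in the chromosome 16 block. Of 9 carriers and uncoupling proteins tested 1 passed (11.1%), and 3 had an unadjusted p under 0.05 in edgeR. VDAC3, a pore of the outer membrane, rose (0.51, adjusted p = 0.0128, edgeR), and it lies in the chromosome 8 block. Of 9 tested genes for other electron entry and carriers, 0 passed in edgeR, DESeq2 or limma-voom, with 1 at an unadjusted p under 0.05 in each.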

How the data were processed

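RNA of 2 vector and 2 EGFR-AS1 libraries of NCI-H1703 cells was sequenced from stranded messenger RNA libraries, per the labels' protocols. The authors deposited 1 table of raw read counts, whole numbers, with 1 row per Ensembl gene. The submitters' processing notes name STAR, HTSeq, DESeq2 and hg19, without versions. Not given in the sources used here are the annotation release, the strand setting and the rule for reads that touch several genes. Symbols came from the reference tables, and biotypes, gene order, overlaps and lengths from GENCODE 29, which belongs to GRCh38, so no gene coordinates are given from it.

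From the counts, edgeR 4.0.16 in R 4.3.3 (TMM, filterByExpr with a minimum count of 10, glmQLFit and glmQLFTest, group as the only term) was run on all 4 libraries and all 16106 genes that passed. P-values were adjusted over these by the Benjamini-Hochberg method, at a threshold of 0.05. CPM were computed with the TMM factors, per kb of the longest transcript where genes are compared. Depth was 32601449 to 41518275 reads a library. Alternatives were RLE factors, no factors, no mitochondrial genes, DESeq2 1.42.0, limma-voom (limma 3.58.1), other filters, each library left out and the set letter as a replicate block. The fit was tested on simulated data. Members, lists and blocks were chosen with earlier results of these data known. Genes were named by rule: every mitochondrially encoded and every called member, the 3 on each side of the threshold, the highest and lowest level per length of each complex, isoform genes, complex II, and up to 4 called genes of each companion list. Outside that rule UQCRC1, NDUFB8, NDUFA7, NDUFV2, COA5, MRPS2, MRPS5 and MRPS26 were named, and the motifs chosen, after their values were seen. A gene that the rule names is not reported here. SCO2 and FASTKD4 of the lists were not matched and are not analysed here.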

Additional observations from a re-analysis of the deposited data

How the results depend on the processing

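COX5B and NDUFB10 remained past the threshold in all 12 alternatives, and no named member that passed changed direction. With RLE factors the same 8 members passed, and DESeq2, limma-voom, library totals without factors and the filter of 1 CPM in 2 libraries gave those 8 and 2 more, MT-CO3 among them. Leaving out 1 library in turn gave 1271 to 3522 called genes in all, 2 to 15 called members, 0 to 10 higher and 2 to 6 lower, and 5 to 31 companion genes. The 0 higher came without either EGFR-AS1 library, in edgeR, with 7 (without A) and 4 (without B) higher members at an unadjusted p under 0.05. The lone library left in a group was assumed to vary like the other group. The mitochondrially encoded median then lay between -0.03 and 0.22, the nuclear one between -0.02 and 0.08 and their difference between -0.04 and 0.20, so the sign of the difference, 0.09 with all libraries, was not settled. Without the members in the chromosomal blocks 4 members passed, 4 higher and 0 lower, by construction. With the set letter as a replicate block 15 members passed (11 higher), and 33 companion genes instead of 18. Deviations of same-lettered libraries from their group means correlated at 0.169 across genes, but with 2 pairs and letters the labels do not explain, the block was not taken as a pairing. Levels per kb moved with the gene length used in 27 of 47 genes. Reads limit MT-ATP8, UQCRHL, UQCR11 and the NDUFB8, NDUFA7, NDUFC2 and NDUFV2 counts, all under 100 a library.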

Other observations

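Of the table's 177 pseudogene rows named after members of the chain, 145 had no read and 10 had at least 10 reads in all. NDUFB8P2, a processed pseudogene of the complex I gene NDUFB8 on chromosome 17, named here after its values were seen, had 40 and 37 reads in the vector libraries and 0 in both EGFR-AS1 libraries. Against a floor of 3 reads over the EGFR-AS1 group it was at least 23.2-fold lower (edgeR adjusted p = 5.18e-05). NDUFB8 itself, with 28 and 21 reads against 26 and 37, did not pass. The pseudogene NDUFV2P1 had 87 and 66 reads with the vector and 62 and 60 with EGFR-AS1, more than the 37, 43, 23 and 16 reads of its parent NDUFV2. Reads of such copies cannot be told apart from those of the parent where the sequences are identical.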
